A study of Mus musculus with 6 samples.

Results

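Met, the receptor tyrosine kinase for hepatocyte growth factor, was at 13.4 CPM in RAW 264.7 cells given lipopolysaccharide (LPS). In cells given LPS with PE-CUR it was at 0.451 CPM. CPM is the count of a gene as a share of its library, scaled between libraries, here the mean of 3 a group. By the fold change of the statistical fit (edgeR), Met was 29.1 times lower. The genes that carry or end the receptor's signal inside the cell and had enough reads to test differed far less. Gab2, Gab3, Cbl and Grb2 lay between 1.87 times lower and 1.19 times higher. Gab1, with at most 3 reads in a library, was not tested. The set described here holds 8 of the 21604 gene symbols in the deposited table: the receptors Met and Mst1r, the ligand Hgf, the docking proteins Gab1, Gab2 and Gab3, the ubiquitin ligase Cbl and the adaptor Grb2. They were picked by symbol as members of 1 signalling family and were selected on earlier results of the same comparison, so their differences between the groups are given as a description, with no p.

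RAW 264.7 is a mouse macrophage-like line, labelled wild type. All 6 libraries come from cells that received LPS, the endotoxin of bacteria that switches macrophages on, at 100 ng/mL for 24 h. In 3 of them the cells also received 2 mg/mL PE-CUR over the same 24 h. PE-CUR is the labels' name for the treatment, and the series title speaks of Pickering emulsions loaded with curcumin, a plant polyphenol. Untreated cells, an empty emulsion and free curcumin were not analysed here, and the labels do not say that replicates came from separate cultures, so the spread between libraries may be technical. The labels also give a bone marrow macrophage as the cell type. All 10 macrophage markers examined were tested, and together they summed to between 11800 and 12200 CPM in LPS and to between 9750 and 10600 CPM with PE-CUR. Single markers differed more than the sum: Fcgr3, an Fc receptor, had 3316, 4329 and 4461 reads in LPS and 286, 547 and 487 with PE-CUR, and Adgre1, which encodes F4/80, had 2869, 2525 and 3274 reads against 1003, 844 and 686. The macrophage growth factor receptor Csf1r was higher with PE-CUR. These 3 markers were picked after their values were seen.

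Hepatocyte growth factor is secreted as an inactive precursor, cut by proteases at the cell surface, and then bound by Met. Mst1r, also called Ron or STK, is the second receptor of the family and binds macrophage-stimulating protein, the product of Mst1; in mouse it is known from resident tissue macrophages, where it dampens inflammatory activation. When the receptors are phosphorylated, Grb2 binds directly and brings Gab docking proteins and the Ras exchange factor Sos, while Cbl attaches ubiquitin to the receptor and sends it to lysosomes. Gab2 and Gab3 are the members of their family used mainly in blood cells, downstream of cytokine and growth factor receptors, and Gab1 is the partner of Met in epithelium.

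Short stretches upstream of the RefSeq start (build GRCm38.p6, the assembly of mm10) are shown for the receptors and for Cbl. They were chosen because Met had the largest difference among the members and Mst1r is its partner in the family. Cbl was added as the tested member higher with PE-CUR. Each is 30 bases long, read 5′ to 3′ on the strand of the gene. The capitals mark the letters of a GC box (GGGCGG), an E-box (CACGTG) or an AP-1 site (TGANTCA), each searched on both strands. The GC boxes of Mst1r and the pair of Cbl are read on the opposite strand, and those of Cbl share a base. For Met and Cbl the start used is that of 1 RefSeq transcript. For Met, Cbl and Mst1r the start lies inside the gene span given with their values.
Met GC box, chr6:17463707-17463736, plus strand: ggctgcgggaaGGGCGGggacgccaacccc
Met E-box and GC box, chr6:17463823-17463852, plus strand: cgaacagaCACGTGctgGGGCGGgtacccg
Met AP-1 letters, chr6:17463891-17463920, plus strand: ctgttgcccggcTGAGTCAcgggccgggca
Mst1r paired GC boxes, chr9:107906812-107906841, plus strand: agggctCCGCCCgtagccCCGCCCccagcc
Cbl paired GC boxes, chr9:44234200-44234229, minus strand: tctttgggctCCGCCCCGCCCgtcccagtg

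In the 250 bases before its RefSeq start, Met held 3 GC boxes, 1 AP-1 match and 1 E-box, and 74.0% of the bases were G or C. Among 32851 promoter windows of the same length the median was 52.4% G or C; a GC box stood in 32.7%, the AP-1 letters in 6.75% and the E-box in 6.02%. In the same window Cbl held 3 GC boxes and the first window of Mst1r held 2, with neither the AP-1 letters nor the E-box in either. The windows of Hgf held none of these letters and Gab1 held 2 GC boxes. The share of G or C was also high in Cbl, at 71.6%, and in the windows of Gab1, at 70.8% and 70.0%. It was 57.6% and 56.4% for Mst1r, 50.8% and 51.2% for Hgf, and 47.6% and 57.2% for Grb2. A TATAAA run, found in 12.4% of all windows, stood in 1 of the 2 windows of Grb2. The stretches of Met with the E-box and with the AP-1 letters overlap an exon annotated for Met in GENCODE M21. Windows were at hand for 6 of the 8 members, all but Gab2 and Gab3. A match describes letters and does not show that a factor binds there.

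Met (chromosome 6, 17463349 to 17573980) had 446, 430 and 481 reads in LPS replicates 1 to 3 and 15, 18 and 10 reads in LPS plus PE-CUR replicates 1 to 3. Scaled for depth these were 13.7, 13.1 and 13.3 CPM against 0.462, 0.530 and 0.361 CPM. The 3 LPS libraries lay close together, all PE-CUR libraries were low, and the lowest LPS library stood far above the highest PE-CUR library. The log2 fold change of LPS plus PE-CUR over LPS was -4.86 (SE 0.17, edgeR). Of the 13014 genes tested, Met ranked 39th when ordered from the most negative fold change. Met, Mst1r and Gab2 overlap no other gene in GENCODE M21, whereas Hgf, Gab1, Gab3, Cbl and Grb2 overlap pseudogenes or short transcripts, and all 8 are protein coding. Within LPS the libraries varied by 2.29% (coefficient of variation of CPM), where counting alone would give about 4.70%. With PE-CUR they varied by 18.8%, where counting alone would give about 26.4%. The low level was still counted in every library and lay above the level of 0.310 CPM that the filter on low counts asks for.

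Transcripts of liver cells, a cell type rich in Met, were found almost wholly in 4 of the 6 libraries. The 8 hepatocyte markers summed to between 49.1 and 69.0 CPM in LPS and to between 0.0568 and 79.1 CPM with PE-CUR. Albumin (Alb) had 1600, 1081 and 1711 reads in LPS replicates 1 to 3, and 1, 0 and 1648 in the PE-CUR libraries. PE-CUR replicate 3, with the most albumin reads of its group, had 10 Met reads, the fewest of all. Without that library the log2 fold change of Met was -4.72. In that fit only the LPS libraries hold many albumin reads, so it cannot separate the treatment from liver transcripts. The 7 epithelial markers in the table summed to between 0.969 and 1.33 CPM in LPS and to between 1.40 and 3.75 CPM with PE-CUR, the opposite direction to Met. Krt18 had 6, 14 and 10 reads in LPS and 43, 34 and 7 with PE-CUR, and Krt8 had 13, 8 and 10 against 24, 22 and 15. Krt14, at 0 in all PE-CUR libraries, had 1 read in LPS. The 7 fibroblast markers summed to between 1.69 and 2.78 CPM in LPS and to between 0.341 and 12.3 CPM with PE-CUR; the upper value came from PE-CUR replicate 2, which had 180 reads of the collagen gene Col1a1. The growth factor receptor gene Pdgfra had 18, 40 and 40 reads in LPS and 3, 2 and 2 with PE-CUR, and Pdgfrb had 11, 14 and 17 against 1, 7 and 2, so both were lower in all PE-CUR libraries, as Met was. Thy1, at 0 in all PE-CUR libraries, had 1 read in LPS. The 5 endothelial markers in the table summed to between 20.2 and 24.9 CPM in LPS and to between 6.87 and 7.49 CPM with PE-CUR. Most of that sum was Vwf, with 515, 669 and 647 reads in LPS and 111, 163 and 150 with PE-CUR. Cdh5 had 77, 91 and 86 reads against 18, 25 and 13. Pecam1 had 41, 29 and 39 reads against 95, 73 and 30, higher in PE-CUR replicates 1 and 2 but not in replicate 3. The vessel receptor genes Kdr and Tek had at most 16 and 2 reads in any library. Vwf, Cdh5, Pdgfra and Pdgfrb were thus lower along with Met, whereas Pecam1 and the epithelial sum were not, and the part of these cell types in its difference was not tested. In bulk RNA, fewer cells with a transcript and less of it per cell cannot be told apart.

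**Figure D1:**
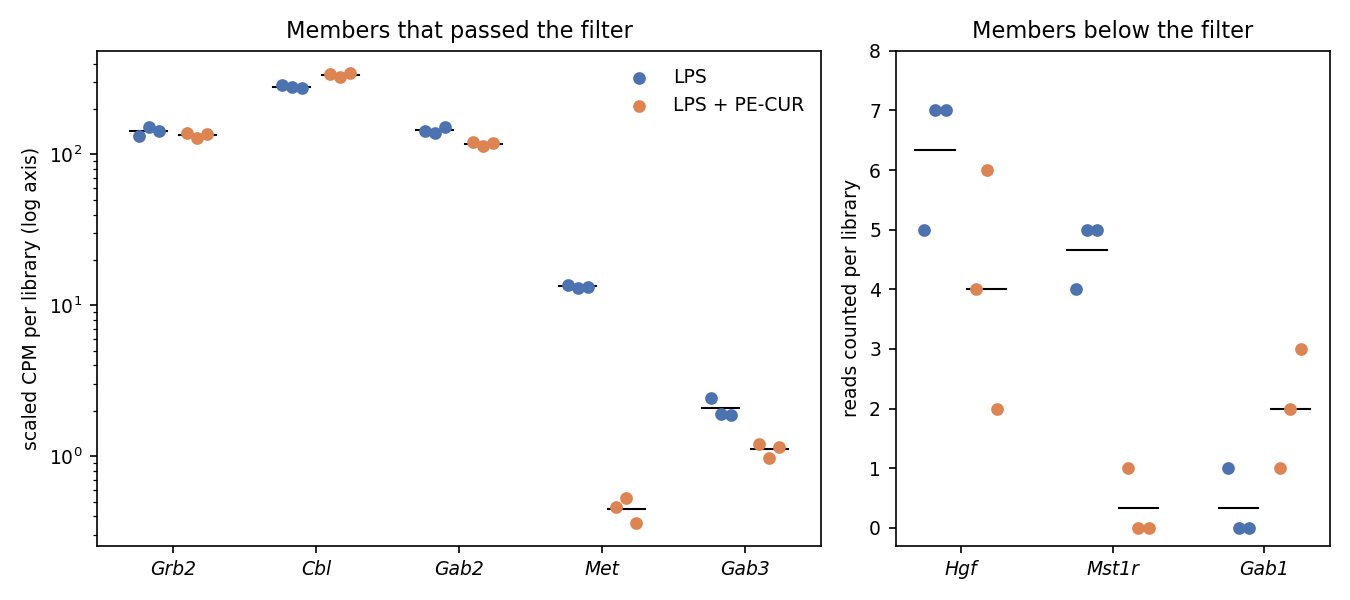
Values of the 8 members in each library, as scaled CPM on a log axis (left, members that passed the filter on low counts) and as reads counted on a linear axis (right, members below it); points are libraries and bars are group means of 3. Met has its LPS libraries between 13.1 and 13.7 CPM and its PE-CUR libraries between 0.361 and 0.530 CPM, while the Grb2 points of the groups overlap.

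Mst1r (chromosome 9, 107906858 to 107920383) was barely detected. It had 4, 5 and 5 reads in the LPS libraries and 1, 0 and 0 with PE-CUR. The groups did not overlap, but every value was at or near the limit of counting: 3 reads in a library correspond to between 0.0850 and 0.105 CPM. The 14 reads of the LPS group have an exact 95% Poisson interval of 7.65 to 23.5, and the 1 read of the PE-CUR group one of 0.0253 to 5.57. The ratio of PE-CUR to LPS was 0.0771, with an exact interval of 0.00182 to 0.507 that covers counting error only. Mst1r did not pass the filter and has no fold change in the main fit.

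The ligand gene Hgf (chromosome 5, 16553495 to 16619439), made mainly by mesenchymal cells, had 5, 7 and 7 reads in LPS and 4, 6 and 2 with PE-CUR. The groups overlapped. Sums of 19 and 12 reads gave a ratio of PE-CUR to LPS of 0.681 with an exact 95% interval of 0.302 to 1.48, so a difference was not detectable at this depth. Gab1 (chromosome 8, 80764431 to 80880519) had 1, 0 and 0 reads in LPS and 1, 2 and 3 with PE-CUR. The ratio of its sums, 6 reads to 1, was 6.47 with an interval of 0.785 to 298, which includes no difference. An annotated antisense gene (Gm31105) overlaps Gab1, and the strand setting of the counting is not given in the sources used here. Even these few reads are uncertain.

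Among the docking proteins, Gab2 carried nearly all of the reads. Gab2 (chromosome 7, 97081751 to 97308951), which brings PI3 kinase and the phosphatase Ptpn11 to activated receptors, stood at 142, 139 and 152 CPM in LPS and at 121, 113 and 119 CPM with PE-CUR. All PE-CUR libraries were below all LPS libraries, and the group means were 144 ± 6.87 and 118 ± 3.79 CPM (SD, n = 3). The log2 fold change was -0.30 (SE 0.06). Gab3 (chromosome X, 74988545 to 75084905), a docking protein first known from macrophage differentiation, had 79, 63 and 68 reads in LPS and 39, 33 and 32 with PE-CUR. That is 2.43, 1.92 and 1.88 CPM against 1.20, 0.972 and 1.16 CPM, without overlap. Its log2 fold change was -0.90 (SE 0.25), with replicates that varied by 14.7% in LPS and 10.9% with PE-CUR, where counting alone would give about 12% and 17%.

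Cbl (chromosome 9, 44142976 to 44234259), the ligase that ends receptor signalling, was the member higher with PE-CUR among those that passed the filter. It stood at 289, 280 and 275 CPM in LPS and at 339, 324 and 345 CPM with PE-CUR, and the groups did not overlap. The log2 fold change was 0.26 (SE 0.05). With 9176 to 11028 reads in a library, counting alone would give about 1.03% and 0.975%, and the spread between libraries was 2.47% in LPS and 3.13% with PE-CUR. Grb2 (chromosome 11, 115644045 to 115708597), whose SH2 domain reads the phosphorylated receptor, stood at 133, 152 and 144 CPM in LPS and 139, 129 and 137 CPM with PE-CUR. These values overlapped, and the log2 fold change was -0.08 (SE 0.06).

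By edgeR's quasi-likelihood test, with p adjusted by Benjamini-Hochberg over all 13014 genes and a threshold of 0.05, 3 of the 5 members that passed the filter were called lower (Met, Gab2 and Gab3), 1 higher (Cbl) and 1 not at all (Grb2). The Gab3 call ended without LPS replicate 1, where its log2 fold change was -0.74. Over all genes tested 32.7% were called lower, 30.8% higher and 63.4% in either direction. Groups did not overlap in 4 of the 5 members and in 69.0% of all genes tested. Since the members were chosen with this comparison known, nothing is read from these counts.

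Levels of different genes can be compared per length, in the deposited FPKM values (counts divided by gene length and library total). In LPS the order was Grb2 at 50.0 ± 3.36 FPKM, Gab2 at 24.5 ± 1.31, Cbl at 24.2 ± 0.537, Met at 1.97 ± 0.0469 and Gab3 at 0.993 ± 0.144 (mean ± SD, n = 3). Gab2 and Cbl were within their spread of each other. Mst1r at 0.0288 ± 0.00304 and Hgf at 0.0265 ± 0.00429 FPKM followed, also within their spread, and Gab1 was listed at 0 in 2 libraries. With PE-CUR the order was Grb2 at 45.5 ± 2.59 FPKM, Cbl at 27.9 ± 1.28, Gab2 at 19.2 ± 1.03, Gab3 at 0.512 ± 0.0654 and Met at 0.0640 ± 0.0120. Hgf at 0.0169 ± 0.00698 and Gab1 at 0.00439 ± 0.00257 FPKM were near the floor, and Mst1r was listed at 0 in 2 libraries. Met thus stood above Gab3 in all LPS libraries and below it in all PE-CUR libraries.

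Ratios within a library do not depend on its depth. Met stood at 0.0812, 0.0803 and 0.0827 of the Cbl level per length in the LPS libraries and at 0.00233, 0.00280 and 0.00180 with PE-CUR. Gab2 to Cbl went from 0.967, 0.981 and 1.09 to 0.700, 0.688 and 0.677, so that the docking protein and the ligase were near parity in LPS and the ligase was ahead in every PE-CUR library. Gab2 exceeded Gab3 by 20.7, 25.7 and 28.7 times in LPS and by 35.6, 41.3 and 36.3 times with PE-CUR. Cbl to Grb2 was 0.537, 0.453 and 0.470 in LPS and 0.602, 0.617 and 0.618 with PE-CUR.

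**Figure D2:**
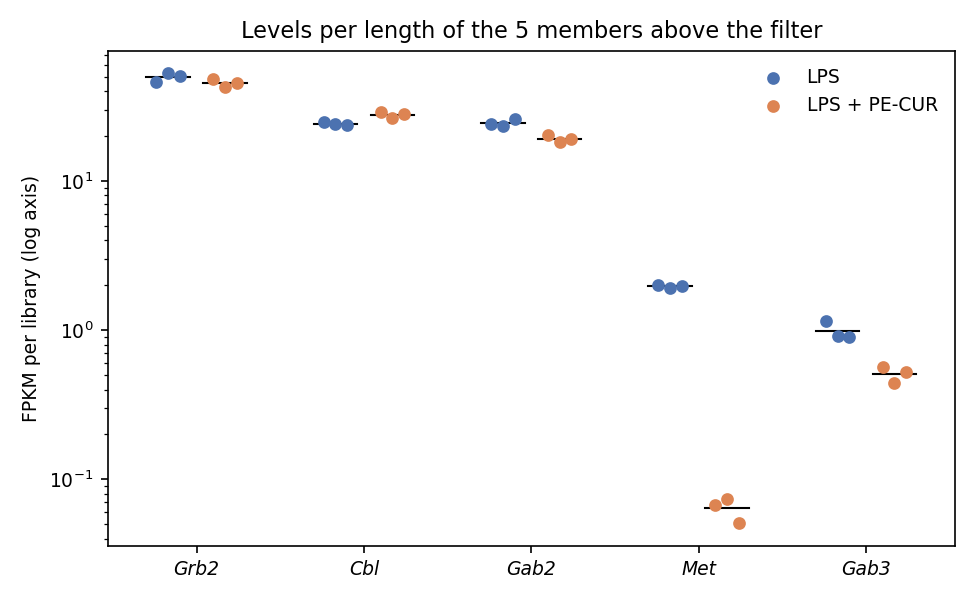
Deposited FPKM of the 5 members above the filter in each library, on a log axis; points are libraries and bars are group means of 3. Met lies above Gab3 in LPS (1.97 against 0.993 FPKM) and below it with PE-CUR (0.0640 against 0.512 FPKM).

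The genes around Met on chromosome 6 were read out after its values had been seen. The nearest tested protein-coding gene on each side was Cav2, a caveolin of membrane invaginations, 174 kb before Met, and Capza2, an actin capping subunit, 63.0 kb after it. Cav2 had 30.9, 28.4 and 36.0 CPM in LPS and 2.92, 4.09 and 4.26 CPM with PE-CUR (edgeR adjusted p = 1.25e-07, log2 fold change -3.08, SE 0.15). Capza2 fell from 317 to 233 CPM (edgeR adjusted p = 2.13e-04, log2 fold change -0.45). One gene further out, Tes, a focal adhesion protein, fell from 283 to 160 CPM (edgeR adjusted p = 2.42e-06, log2 fold change -0.83) and St7 from 37.2 to 26.7 CPM (edgeR adjusted p = 8.06e-05, log2 fold change -0.48). All 4 were called lower, against 32.7% of all genes tested, and all 4 differed less than Met. Since they were read out with the values of Met known, nothing is read from this count. Cav1, which lies between Cav2 and Met, had at most 4 reads in a library and was not tested. Around Cbl the neighbours went both ways. Mcam, an adhesion molecule ending 0.249 kb from Cbl, fell from 5.63 to 0.537 CPM (edgeR adjusted p = 2.46e-06). Nlrx1 rose from 16.9 to 19.9 CPM (edgeR adjusted p = 0.0451). Near Gab2, Tenm4 fell from 31.0 to 1.06 CPM (log2 fold change -4.9), about as far as Met, and Nars2 rose from 25.8 to 29.6 CPM. The nearest tested genes around Hgf lay far from it. Gm28710, at 172 kb, was not called. Cd36 at 1160 kb, Dmtf1 at 7390 kb and Tmem243 at 7430 kb were called lower.

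**Figure D3:**
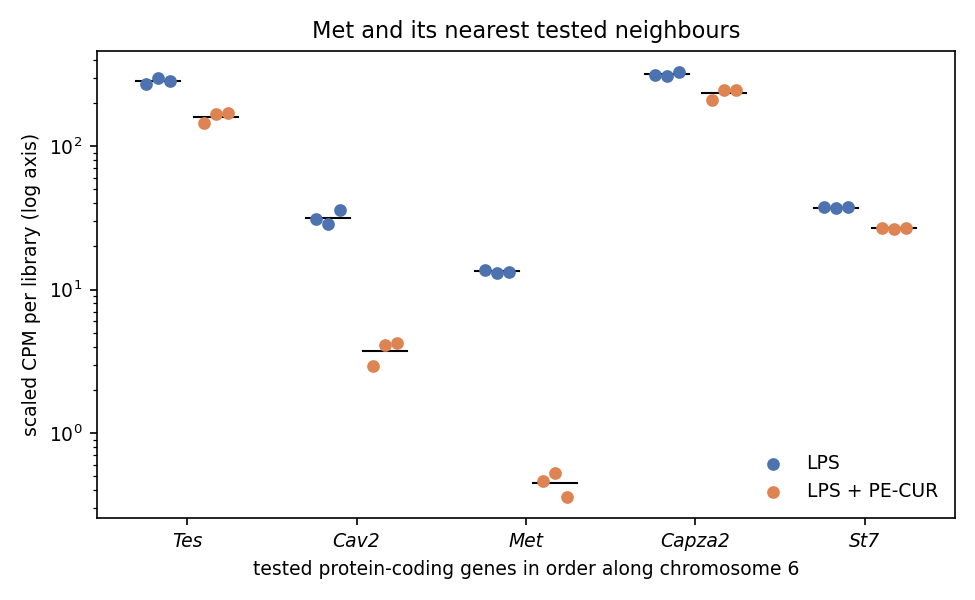
Scaled CPM on a log axis for Met and the 2 nearest tested protein-coding genes on each side, in their order along chromosome 6; points are libraries and bars are group means of 3. All 5 genes are lower in LPS plus PE-CUR, Capza2 and St7 the least and Met the most.

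Genes with a pattern across the 6 libraries most like that of Met, by Pearson correlation of log2 CPM over 13013 other genes, were Etfdh, a mitochondrial electron carrier enzyme (r = 0.9996), Tm6sf1 (r = 0.9995) and Chd7, a chromatin remodeller (r = 0.9994). The measure ignores the size of the change: Etfdh went from 91.3 ± 0.493 to 50.9 ± 1.45 CPM, Tm6sf1 from 261 ± 2.77 to 152 ± 2.87 CPM and Chd7 from 137 ± 1.22 to 97.5 ± 1.08 CPM. With 2 groups of 3 libraries, 379 genes correlated above 0.99 with Met, so the order among them means little.

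Set beside the other receptor tyrosine kinases, a list of 58 written after the values of the members were known, Met had the most negative log2 fold change of the 23 that were tested. Tie1, an endothelial receptor, was next at -4.19 (SE 0.54), from 1.82 to 0.101 CPM, followed by Pdgfra at -3.62 (SE 0.52), Flt4 at -3.59 (SE 0.49) and Mertk, a receptor of the TAM family, at -3.51 (SE 0.44). All 4 were called lower by edgeR, and each was below 2 CPM in LPS. With PE-CUR their means were 0.101, 0.0745, 0.0522 and 0.0745 CPM, under the 0.310 CPM that the filter on low counts asks for. They thus passed the filter through the LPS libraries alone, which favours a lower call in advance. Of the 23, Met included, 13 were called lower, 5 higher and 5 not called, against 32.7% lower and 30.8% higher over all genes tested; since the list was written with values known, nothing is read from this count. Met was ninth in CPM in LPS and fourteenth with PE-CUR, an order not corrected for length. Ddr2, a collagen receptor, fell from 58.1 to 22.8 CPM (edgeR adjusted p = 5.52e-07). Tyro3, also of the TAM family, fell from 1.70 to 0.244 CPM (edgeR adjusted p = 3.31e-05), with a PE-CUR mean under the filter level too. Csf1r, the receptor for macrophage growth factors and the most abundant of the list, rose from 865 to 1200 CPM (edgeR adjusted p = 1.90e-04), and Erbb3, a receptor for neuregulins, from 17 to 22.5 CPM (edgeR adjusted p = 0.00394).

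The rest of the pathway was taken from 6 lists written from what the genes are known to do, with earlier results of these data known. Genes named from the lists were picked by their p in this same comparison, so those p describe picked genes. Of 129 genes outside the 8 members, 109 were tested, 27 rose and 43 fell, which is 64.2% called, near the 63.4% of all genes tested. Their median log2 fold change was -0.10, and that of all tested genes was -0.03.

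The list of ligand activation and inhibition had 8 tested genes, of which 0 rose, 4 fell and 4 were not called (median log2 fold change -0.87). That is 50% called, against 63.4% of all genes tested. The median lies between Spint1 (0.503 to 0.238 CPM) and Hpn (0.586 to 0.357 CPM), low genes that were not called. Plg, also not called, had an SD above its mean with PE-CUR (0.373 ± 0.647 CPM). Mst1, the ligand of Mst1r, fell from 11 ± 0.270 to 7.87 ± 0.440 CPM (edgeR adjusted p = 0.00243). St14, a membrane protease that activates both ligand precursors, fell from 98.9 ± 1.52 to 71.9 ± 4.18 CPM (edgeR adjusted p = 7.11e-05). The plasminogen activator gene Plat fell from 2.94 to 1.36 CPM (edgeR adjusted p = 0.0168). The liver-made clotting protease gene F12 fell from 1.63 to 0.685 CPM (edgeR adjusted p = 0.0242). F12 overlapped between the groups, at 0.940 CPM in LPS replicate 3 and 1.12 CPM in PE-CUR replicate 3. LPS replicate 3 had 34 reads, against 61 and 68 in replicates 1 and 2. PE-CUR replicate 3 had 31 reads, against 16 and 15. These libraries had 1711 and 1648 albumin reads, and the part of liver transcripts in F12 was not tested. The activator gene Plau stood at 1040 CPM in LPS and 1280 CPM with PE-CUR and was not called.

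Among surface partners of the receptors 4 rose, 5 fell and 5 were not called of 14 tested. The share called was 64.3%, near the 63.4% of all genes tested. The integrin genes Itga6 and Itgb4, whose products together bind laminin and associate with Met, fell from 76.4 ± 4.33 to 29.7 ± 1.83 CPM (edgeR adjusted p = 1.43e-07, log2 fold change -1.36) and from 22.2 ± 0.941 to 5.75 ± 1.97 CPM (edgeR adjusted p = 2.19e-04, log2 fold change -1.94). Cd44, a hyaluronan receptor that serves as a coreceptor of Met, fell from 712 to 440 CPM (edgeR adjusted p = 7.79e-05) and Nrp1 from 70.8 to 35.2 CPM (edgeR adjusted p = 5.56e-05). Plxnb2, a semaphorin receptor that can pair with Met and Ron, rose from 392 to 640 CPM (edgeR adjusted p = 5.74e-05), and Nrp2 from 847 to 1080 CPM (edgeR adjusted p = 2.96e-04). The neuropilins, both coreceptors of semaphorins and growth factors, thus went in opposite directions.

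Gab adaptors also serve other receptors of blood cells. Of 9 such receptor genes tested 3 rose, 4 fell and 2 were not called (77.8% called, against 63.4% of all genes tested). Besides Csf1r, Il2rg, the shared chain of several interleukin receptors, rose from 96.3 to 126 CPM (edgeR adjusted p = 1.05e-04). Csf2rb, the shared chain of the receptors for GM-CSF and related cytokines, fell from 83.4 to 49.9 CPM (edgeR adjusted p = 2.82e-05), the insulin receptor gene Insr from 71.6 to 52.1 CPM (edgeR adjusted p = 1.12e-04), Il6st from 180 to 148 CPM (edgeR adjusted p = 0.00179) and Epor from 2.29 to 0.767 CPM (edgeR adjusted p = 0.00166).

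Of 29 tested phosphotyrosine adaptors and effectors 5 rose, 13 fell and 11 were not called (median log2 fold change -0.16). In all 62.1% were called, near the 63.4% of all genes tested. The largest fall among those named was Src, a tyrosine kinase that acts next to Met, from 33.6 ± 2.45 to 5.79 ± 0.379 CPM (edgeR adjusted p = 2.53e-08, log2 fold change -2.54, SE 0.10). Pik3cb, a catalytic subunit of PI3 kinase, fell from 266 to 117 CPM (edgeR adjusted p = 3.93e-07), whereas Pik3cd, the subunit typical of leukocytes, rose from 39.7 to 69.8 CPM (edgeR adjusted p = 1.80e-05). Sos2, a Ras exchange factor carried by Grb2, fell from 107 to 74.1 CPM (edgeR adjusted p = 1.60e-05) and the adaptor gene Crk from 131 to 92.6 CPM (edgeR adjusted p = 3.79e-05). Grap, a leukocyte relative of Grb2, rose from 54.6 ± 1.90 to 81.1 ± 1.23 CPM (edgeR adjusted p = 9.81e-06).

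Among the Ras, ERK, PI3 kinase and Rac relays 10 rose, 6 fell and 10 were not called of 26 tested (median log2 fold change 0.05). Calls made up 61.5% of this list, near the 63.4% of all genes tested. Rac2, a GTPase of blood cells, rose from 323 to 596 CPM (edgeR adjusted p = 6.33e-07), Mtor from 62.3 to 91.7 CPM (edgeR adjusted p = 6.28e-05), Pak2 from 214 to 274 CPM (edgeR adjusted p = 2.06e-04) and Akt1 from 200 to 253 CPM (edgeR adjusted p = 4.93e-04). Mapk3, which encodes ERK1, fell from 135 to 102 CPM (edgeR adjusted p = 2.19e-04) and the JNK gene Mapk9 from 90.6 to 73.1 CPM (edgeR adjusted p = 7.30e-04).

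Of 23 tested genes of ubiquitination, endocytosis, shedding and phosphatases 5 rose, 11 fell and 7 were not called (median log2 fold change -0.28). Called genes were 69.6% of the list, against 63.4% of all genes tested. Cblb, the relative of Cbl that also ubiquitinates receptors, fell from 33.1 ± 1.75 to 16.8 ± 0.590 CPM (edgeR adjusted p = 1.40e-06, log2 fold change -0.98, SE 0.08). Sh3kbp1, also called CIN85, links Cbl to the endocytic machinery and fell from 92.5 to 49.0 CPM (edgeR adjusted p = 4.83e-07). Ubash3b, a phosphatase that binds Cbl, fell from 126 to 89.9 CPM (edgeR adjusted p = 2.79e-05), and Psen2, a protease subunit that cuts shed receptors, from 67.1 to 41.8 CPM (edgeR adjusted p = 8.29e-06). Ptpn1, which dephosphorylates Met, rose from 35.1 to 45.1 CPM (edgeR adjusted p = 6.59e-04), and Adam10, which sheds the outer part of Met, from 227 ± 13 to 393 ± 84.2 CPM (edgeR adjusted p = 0.00495). The third Cbl gene, Cblc, had 2 reads in all LPS libraries together and 0 with PE-CUR.

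**Figure D4:**
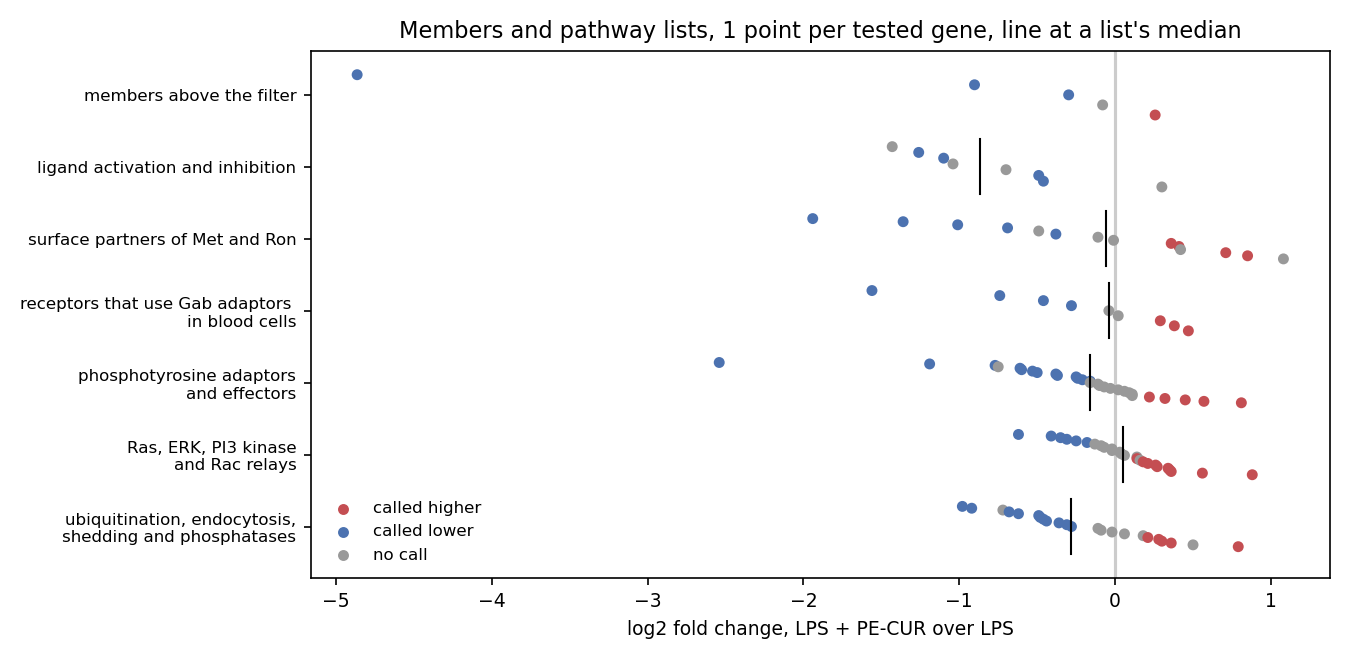
Log2 fold change of LPS plus PE-CUR over LPS for each tested member and each tested gene of the 6 pathway lists; points are genes, coloured by the edgeR call, and black lines are the medians of the lists. Met at -4.86 lies outside the range of all 6 lists, whose lowest named gene is Src at -2.54.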

How the data were processed

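RNA was sequenced from 6 libraries of RAW 264.7 cells. Per the labels' protocols RNA was taken up in TRIzol and libraries were built with a VAHTS V6 kit. The submitters' processing notes name the build mm10 and the tools fastp, SAMtools, HTSeq and DESeq2. Aligner, versions and strand setting: not given in the sources used here. The authors deposited whole-number counts per gene symbol and FPKM values of the same genes. The deposited FPKM equal counts divided by 1 length per gene and the library total in 100% of values above 0 (relative tolerance 1e-04), so they are no second measurement. Library totals were 28530750 to 35276533 counts. Genes with at least 1 count numbered 18219, 18210 and 18451 in LPS and 16701, 17002 and 16754 with PE-CUR. Every PE-CUR library thus had fewer such genes than every LPS library.

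The counts were tested with edgeR 4.0.16 in R 4.3.3 (filterByExpr by group, TMM factors of 0.964 to 1.03, robust quasi-likelihood fit with the group as its only term, two-sided, Benjamini-Hochberg over 13014 genes). CPM are scaled by the TMM factors, except for marker sums, and SE was taken from the fold change and its F statistic. The steps were tested on simulated data. Alternatives used DESeq2 1.42.0 and limma 3.58.1. Poisson intervals are exact, 95%, and cover counting error only. Members and lists were chosen with earlier results of these data known. Named from each list were up to 4 called genes of smallest p in the direction with more calls, and up to 2 in the opposite one. Loci and promoter windows come from RefSeq on GRCm38.p6, where all 8 members were found; overlaps come from GENCODE M21. The receptor kinase list and the neighbours of the members were added after the values were seen.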

Additional observations from a re-analysis of the deposited data

How the results depend on the processing

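In 16 alternatives (other scaling, other filters, DESeq2, limma on counts or log2 FPKM, the replicate block, each library left out, abundant genes removed) Met and Gab2 were called lower and Cbl higher in all, and Gab3 lower in 15, all but the fit without LPS replicate 1. Grb2 was called in none, and its log2 fold change lay between -0.14 and 0.01. Cbl lay between 0.19 and 0.32, and Gab2 between -0.35 and -0.22. The log2 fold change of Met lay between -4.95 and -1.48; the smallest size comes from log2(FPKM + 1), whose pseudocount exceeds the PE-CUR level of Met, and log2(FPKM + 0.1) gave -3.66. Gab3 was -0.40 with log2(FPKM + 1). Without the filter on low counts Mst1r was also called lower, which made 4 members lower; it rests on 14 reads against 1. Members called lower numbered 2 to 3 when a library was left out. Pathway genes called higher numbered 20 to 31 and lower 36 to 50 over the alternatives. With the replicate block 23 pathway genes were higher, 40 were lower, and the calls of the members did not change. Deviations of same-numbered libraries correlated at -0.102, -0.178 and -0.048, and in 0 of 3 cases was the own number the best match. Depth limits Mst1r, Hgf and Gab1, which had at most 7 reads in a library.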
